A study of Homo sapiens with 52 samples.

Results

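TeloHAEC are human aortic endothelial cells immortalised by telomerase, and here their RNA after interleukin-1β (IL-1β) was set directly against their RNA after tumour necrosis factor-α (TNF-α). The comparison used the 3 TeloHAEC libraries labelled IL-1β and the 3 labelled TNF-α, chosen by those labels and with no control subtracted, which is 6 of the 52 libraries of the series. All 6 came from the parental line, which carries no CRISPR interference construct, and each cytokine was given at 10 ng/ml for 24 h. The 3 untreated parental TeloHAEC libraries (normal growth medium) were used only to place a gene above or below its untreated level. Libraries of Eahy926, a hybrid of endothelial and lung carcinoma cells, under the same doses and time were used only to ask whether a cytokine difference was the same in another line. The model is 1 immortalised line at 1 dose and 1 time. Nothing in the labels states that libraries within a group are separate cultures. The p-values therefore measure the spread between libraries of a group, pooled over all groups in the fit, and that spread may be technical.

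IL-1β signals through the receptor IL1R1 and its partner IL1RAP to the adaptor MYD88 and the IRAK kinases. TNF-α signals through TNFRSF1A and TNFRSF1B to TRADD, TRAF2, RIPK1 and the ubiquitin ligases BIRC2 and BIRC3. Both routes end in NF-κB, a family of transcription factors that in endothelium drives chemokines, leukocyte adhesion molecules and its own inhibitors, so a direct contrast shows where the end points of the routes differ.

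RNA levels were deposited as TPM, a measure of transcript abundance. TPM are corrected for gene length and sum to the same total in each library, and the number of reads behind them is unknown. In the 6 libraries 12155 to 12291 gene symbols reached 1 TPM, and the 50 most abundant symbols held 14.3% to 14.9% of the total. Across genes, r of log2(TPM + 1) was 0.99428 to 0.99467 within a cytokine and 0.98952 to 0.99035 between the cytokines. Endothelial markers were present in all 6: CDH5, the endothelial cadherin, spanned 1050 to 1120 TPM, PECAM1 129 to 138 TPM and KDR 112 to 122 TPM, while VWF was low at 4.86 to 6.13 TPM. Of the leukocyte markers 8 of 10 stayed under 1 TPM in all 6 libraries, with CD3E, TYROBP and CD163 among those at 0, and the summed level was 347 to 364 TPM with IL-1β and 360 to 387 TPM with TNF-α, most of it LAPTM5 and CD68. Of the fibroblast and smooth muscle markers 7 of 10 stayed under 1 TPM, with DCN, LUM and MYOCD at 0. Of the epithelial markers 7 of 12 did, with CDH1, GRHL2 and KRT5 at 0, but KRT19 and KRT18 were abundant and the summed level was 1060 to 1100 TPM with IL-1β and 1490 to 1570 TPM with TNF-α.

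At 24 h the cytokines left TeloHAEC with different RNA levels for many genes, more of them higher with TNF-α than with IL-1β. Of 13542 genes fitted, 1726 (12.7%) differed at an adjusted p under 0.05 in limma: 477 (3.52%) were higher with IL-1β and 1249 (9.22%) higher with TNF-α. Most of these differences were small, with a median size of 0.40 log2 units among genes higher with IL-1β and 0.35 among those higher with TNF-α, on log2(TPM + 1). At 1 log2 unit or more the order turned, with 56 genes (0.414%) higher with IL-1β and 31 (0.229%) higher with TNF-α, 87 (0.642%) in all; this order did not hold with a pseudocount of 0.1 in place of 1, where the counts were 73 and 86. At 2 log2 units or more there were 21 and 2 genes. The libraries did not overlap for 55 of the 56 and all 31, against 31.9% of all genes. The genes were selected on these same libraries, which favours such separation, so it adds no support. Because TPM are shares, the split of the small differences moved with the scaling: 27.6% of called genes were higher with IL-1β as deposited, 43.2% after rescaling by the median of ratios and 42% after quantile normalisation. The genes called higher with IL-1β together held 9.19% to 9.32% of all TPM in the IL-1β libraries and 6.68% to 6.74% in the TNF-α libraries. Those called higher with TNF-α held 8.82% to 8.87% in the IL-1β libraries and 10.7% in the TNF-α libraries. The direction of both follows from how the genes were selected. In these bulk samples a smaller number of responding cells and less RNA per cell cannot be told apart. The count at 1 log2 unit on the TNF-α side rested on weakly expressed genes: 14 of its 31 genes reached 5 TPM in the TNF-α mean, against 45 of 56 on the IL-1β side, and with a filter of at least 5 TPM the counts were 18 toward TNF-α and 45 toward IL-1β.

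**Figure D1:**
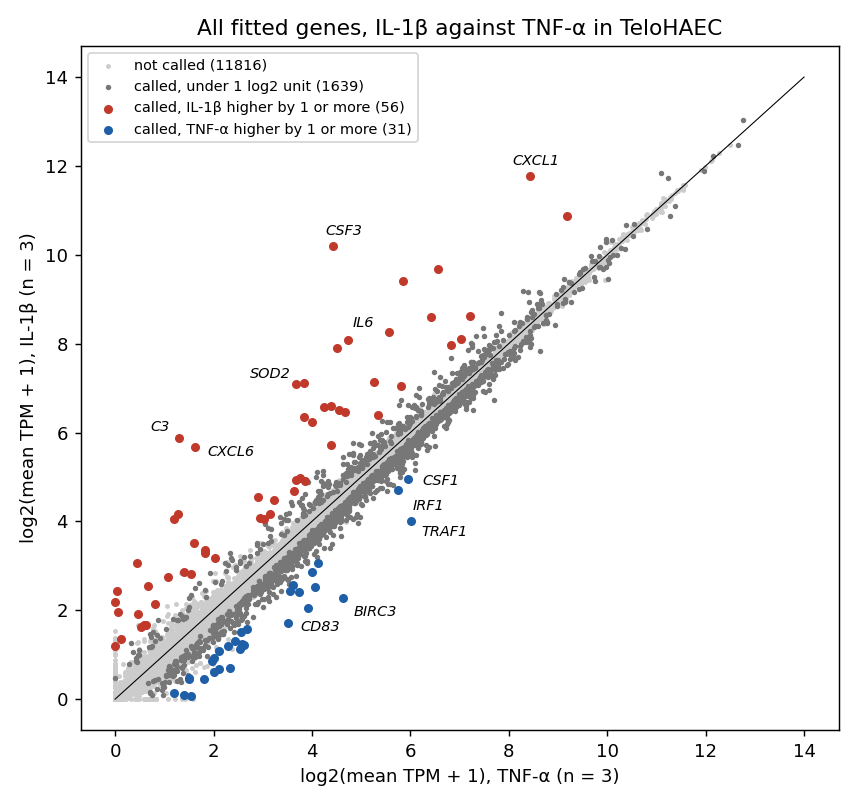
Each point is 1 of the 13542 fitted genes, with log2 of the mean TPM plus 1 of the 3 TNF-α libraries on the x axis, the same for the 3 IL-1β libraries on the y axis, and the diagonal marking equal levels. Red points (56) and blue points (31) differ by 1 log2 unit or more, and the red ones reach farther from the diagonal, up to CSF3 at 5.80 log2 units.

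Set against untreated cells, the genes of the 2 directions differed in kind. Of the 477 genes higher with IL-1β, 217 (45.5%) were above the untreated level with IL-1β and not called with TNF-α, and 135 (28.3%) were above it with both. Of the 1249 genes higher with TNF-α, 548 (43.9%) were below the untreated level with IL-1β and not called with TNF-α, 281 (22.5%) were below it with both, and 168 (13.5%) were above it with TNF-α alone. On TPM as deposited, most of what stood higher with TNF-α was therefore a gene that had fallen under IL-1β. Among the larger differences this was not so: of the 31 genes at 1 log2 unit or more on the TNF-α side, 13 were above the untreated level with both cytokines and 9 with TNF-α alone, and of the 56 on the IL-1β side the counts were 35 with both and 17 with IL-1β alone. Of all genes 9.92% were above and 21.2% below the untreated level with IL-1β, and 8.27% and 9.95% with TNF-α. The 2 control comparisons share their 3 untreated libraries. The split against untreated cells was not repeated after rescaling. Genes called higher with TNF-α then numbered 933 by the median of ratios and 922 by quantile normalisation.

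**Figure D2:**
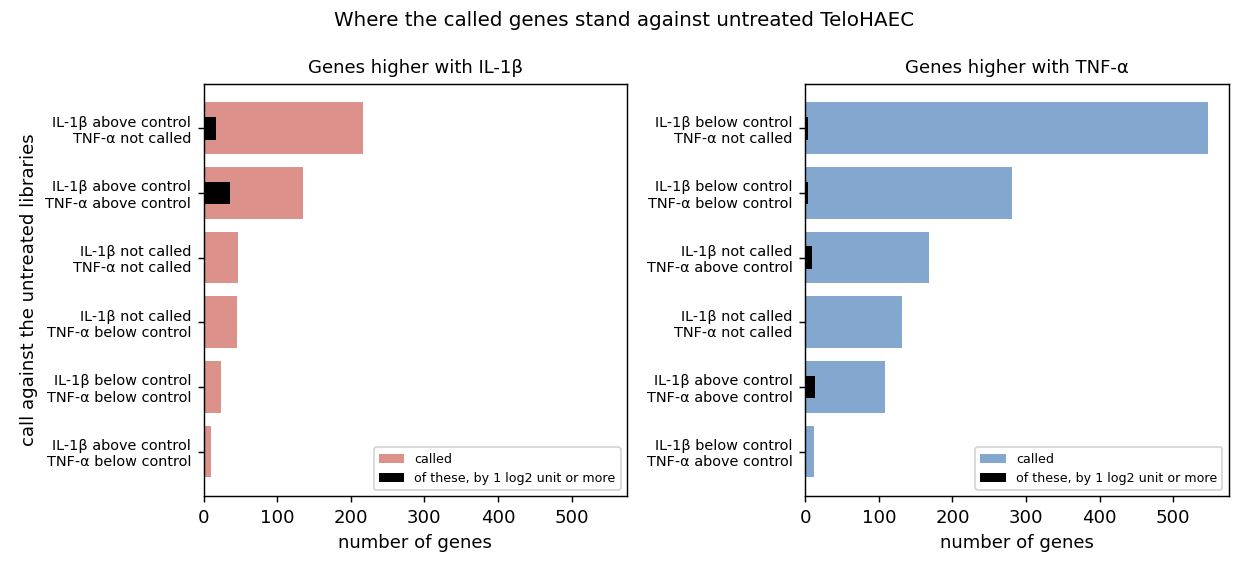
Bars count the genes called higher with IL-1β (left, 477 genes) and with TNF-α (right, 1249 genes) by their call against untreated TeloHAEC under each cytokine, with the number of genes on the x axis. Inner black bars count the genes that differ by 1 log2 unit or more; the longest left bar is IL-1β above control and TNF-α not called (217), the longest right bar IL-1β below control and TNF-α not called (548).

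The widest difference was in CSF3, granulocyte colony-stimulating factor, which drives the production and release of neutrophils. CSF3 read 1177, 1187 and 1171 TPM in the IL-1β libraries, 16.5, 25.6 and 19.4 TPM in the TNF-α libraries and 21.5, 22.2 and 15.7 TPM untreated. The TNF-α libraries lay within or just above the untreated range, and the IL-1β mean was 57.5 times the TNF-α mean (5.80 log2 units, SE 0.194, limma adjusted p = 2.73e-15). TNF-α against untreated was not called for CSF3 (log2 0.04, limma adjusted p = 0.941). CXCL6, a chemokine that attracts neutrophils through CXCR1 and CXCR2, read 48.2, 54.8 and 47.8 TPM with IL-1β, 2.04, 2.09 and 2.12 TPM with TNF-α and 0, 0 and 0.499 TPM untreated. Here TNF-α also lay above every untreated library, and the IL-1β mean was 24.2 times the TNF-α mean (4.06 log2 units, SE 0.135, limma adjusted p = 2.73e-15).

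In the other direction the leading genes were BIRC3 and TRAF1, which sit on the TNF receptor complex. BIRC3, the ubiquitin ligase cIAP2, read 3.84, 3.39 and 4.304 TPM with IL-1β, 24.3, 22.4 and 24.8 TPM with TNF-α and 0.288, 0.124 and 0.1595 TPM untreated. TRAF1, an adaptor that binds TRAF2 and the cIAP ligases, read 15.7, 15.8 and 13.7, 62.6, 64.8 and 62.2 and 0.724, 1.28 and 0.904 TPM in that order. For both genes the 3 groups were fully apart, with IL-1β between untreated and TNF-α, so neither was a gene of TNF-α alone. The TNF-α mean was 6.19 times the IL-1β mean for BIRC3 (-2.36 log2 units, SE 0.117, limma adjusted p = 2.44e-12) and 4.199 times for TRAF1 (-2.002 log2 units, SE 0.118, limma adjusted p = 5.36e-11).

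**Figure D3:**
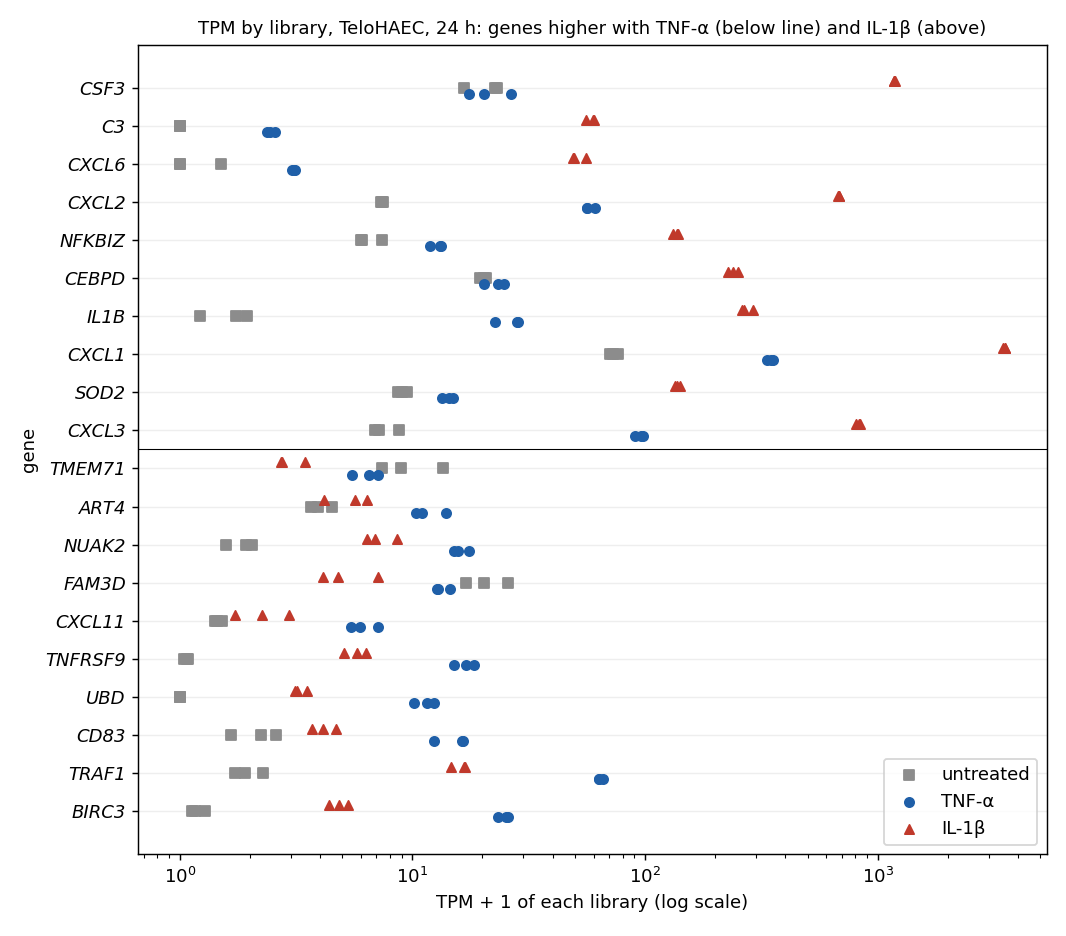
TPM plus 1 is drawn on a log axis, 1 symbol for each of the 3 libraries of a group. The genes are the 10 with the largest called differences in each direction. Entry required at least 5 TPM in the mean of the higher group and no overlap between IL-1β and TNF-α libraries. By that choice red triangles (IL-1β) lie to the right of blue circles (TNF-α) above the line and to the left below it. For CSF3 and CEBPD the TNF-α libraries sit close to the grey untreated squares.

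The other genes of the 10 largest differences toward IL-1β were C3, CXCL2, NFKBIZ, CEBPD, IL1B, CXCL1, SOD2 and CXCL3. C3, the central complement protein, read 59.3, 58.98 and 54.4 TPM with IL-1β and 1.56, 1.44 and 1.37 TPM with TNF-α and was listed at 0 in all 3 untreated libraries. CEBPD, a transcription factor of the acute phase response, read 225, 250.3 and 238 TPM with IL-1β and 23.9, 19.4 and 22.3 TPM with TNF-α, where the untreated libraries read 19.3, 18.4 and 19.6 TPM. Like CSF3, CEBPD was called against untreated cells with IL-1β and not with TNF-α (limma adjusted p = 0.515 for TNF-α). NFKBIZ encodes IκBζ, a nuclear cofactor of NF-κB, and stood at 135 ± 3.79 TPM with IL-1β against 11.8 ± 0.738 TPM with TNF-α (mean ± SD, n = 3) and 5.499 ± 0.794 TPM untreated. SOD2, the mitochondrial superoxide dismutase, stood at 137 ± 3.01 against 13.2 ± 0.797 TPM. Both lay above untreated cells under either cytokine. The 10 leading genes of a direction were chosen with no overlap between the cytokines' libraries, so that separation is no further result.

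All 5 neutrophil-attracting CXC chemokines that were fitted were called higher with IL-1β. Their median difference was 3.34 log2 units beside a median of -0.0497 over all genes. The list held 7 symbols, of which IL8 is an older name of CXCL8 and had no values. CXCL1 read 3527, 3527 and 3449 TPM with IL-1β and 354, 332 and 347 TPM with TNF-α. CXCL8, interleukin-8, differed least of the 5, at 1989, 1874 and 1782 TPM against 598, 558 and 576 TPM, or 3.26 times (1.70 log2 units, SE 0.124, limma adjusted p = 1.98e-09). CXCL2 (677 ± 3.75 against 56.9 ± 2.56 TPM) and CXCL3 (823 ± 17.4 against 94.1 ± 3.87 TPM) lay between, and no library overlapped for any of the 5. All 5 were also above untreated cells with TNF-α, so the difference was one of level. CXCL1, CXCL2 and CXCL3 are close copies of one another, and reads may have been split between them, which makes their single values less certain than their direction. CXCL5 stayed under the filter at 1.11, 0.6403 and 1.13 and 0.396, 0.302 and 0.647 TPM.

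Because these chemokines sit together on chromosome 4 and moved together, start regions are shown for CXCL1, CXCL2, CXCL3 and CXCL6, with those of other leading genes. CXCL8 is not among the 10 leading genes of a direction, and its start region is not shown. Sequences are from RefSeq on GRCh38.p14, a later build than the hg19 of the submitters' processing notes; the 250 bases before each start site were searched on both strands for the NF-κB consensus motif. Capitals mark the match, and each line gives 10 bases on either side, 5′ to 3′ on the gene's strand.

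CXCL1, chr4:73869304-73869334, + strand, match from 79 bases before the start: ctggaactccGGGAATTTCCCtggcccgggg
CXCL2, chr4:74099253-74099283, - strand, 78 bases before: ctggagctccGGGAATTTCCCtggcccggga
CXCL3, chr4:74038748-74038778, - strand, 79 bases before: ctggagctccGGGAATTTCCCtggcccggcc
CXCL6, chr4:73836578-73836608, + strand, 90 bases before: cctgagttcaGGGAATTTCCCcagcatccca
NFKBIZ, chr3:101827757-101827786, + strand, 223 bases before: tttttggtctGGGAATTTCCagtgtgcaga
BIRC3, chr11:102317275-102317304, + strand, 199 bases before: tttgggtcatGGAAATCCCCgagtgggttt
BIRC3, chr11:102317339-102317368, + strand, 135 bases before: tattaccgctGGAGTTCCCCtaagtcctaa
TNFRSF9, chr1:7940893-7940923, - strand, 74 bases before: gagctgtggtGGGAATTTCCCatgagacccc
UBD, chr6:29559766-29559795, - strand, 53 bases before: aatccaggcaGGGGATTTCCaactcaactc
CXCL11, chr4:76036127-76036156, - strand, 76 bases before: gactcaaagaGGGAAATTCCtgtgccataa

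CXCL1, CXCL2, CXCL3 and CXCL6 carry the same match of 11 letters, which reads as the consensus on both strands with the 2 matches overlapping. CXCL1, CXCL2 and CXCL3 share most of the flanking bases as well. TNFRSF9, which was higher with TNF-α, carries that same match. The consensus occurred in the 250 bases before 1828 of 35116 RefSeq start sites (5.21%). Among the 9921 fitted genes with an entry it occurred before 589 (5.94%). Of the 10 leading genes of each direction, the IL-1β side had 5 with a match, 2 without (IL1B and SOD2) and 3 with no entry in the table, and the TNF-α side had 4 with a match, 5 without (TRAF1, CD83, FAM3D, NUAK2 and ART4) and 1 with no entry. A match is a description of the letters and not a measured binding site. No binding was measured in these files.

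Of the colony-stimulating factors and other cytokines, 12 of 16 were fitted: 5 were called higher with IL-1β (CSF3, IL6, CSF2, LIF and EBI3) and 2 with TNF-α (CSF1 and IL4I1), with a median of 0.226 log2 units. IL6, which triggers the hepatic acute phase response, read 313, 291 and 308 TPM with IL-1β, 43.8, 45.95 and 48.97 TPM with TNF-α and 31.3, 30.2 and 29.3 TPM untreated. The difference between the cytokines was 6.58 times (2.69 log2 units, SE 0.186, limma adjusted p = 7.32e-10), and the groups were fully apart. CSF2, granulocyte-macrophage colony-stimulating factor, stood at 385 ± 7.87 against 84.2 ± 3.8 TPM, and LIF, a cytokine of the IL-6 family, at 10.5 ± 0.405 against 2.04 ± 0.406 TPM. CSF1, which supports monocytes and macrophages, went the other way: it read 29.1, 32.4 and 28.3 TPM with IL-1β and 60.3, 61.8 and 61.6 TPM with TNF-α, 2.04 times higher with TNF-α (-1.01 log2 units, SE 0.117, limma adjusted p = 2.36e-06). Untreated CSF1 was lowest of the 3 groups at 16.97 ± 0.595 TPM. IL32 read 687 ± 15.1 against 989.9 ± 22.2 TPM and was not called (limma adjusted p = 0.0562), although its libraries did not overlap; with only the 6 libraries in the fit it was called (limma adjusted p = 0.000554).

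Chemokines for monocytes and T cells showed no common direction: of 8 fitted, of 13 listed, 2 were called higher with IL-1β and 2 with TNF-α, with a median of 0.034 log2 units. CCL2, the main monocyte attractant, reached close levels under both, at 2473, 2348 and 2486 TPM with IL-1β and 2314, 2314 and 2328 TPM with TNF-α over an untreated 108 ± 10.1 TPM, and was not called (log2 0.07, SE 0.0695, limma adjusted p = 0.601). CCL20 (9.18 ± 0.761 against 2.53 ± 0.804 TPM) and CCL7 (5.73 ± 2.22 against 1.12 ± 0.69 TPM) were called higher with IL-1β. CXCL11, a ligand of CXCR3 on T cells, read 0.7295, 1.27 and 1.94 TPM with IL-1β and 4.93, 4.42 and 6.12 TPM with TNF-α, and CXCL10, a second ligand of CXCR3, 1.44, 0.476 and 1.51 and 2.55, 2.72 and 4.33 TPM. Both CXCR3 ligands were called higher with TNF-α without overlap, at low levels. With a pseudocount of 0.1 the calls of CCL7, CCL20 and CXCL10 were lost (limma adjusted p = 0.0798, 0.146 and 0.098).

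Within the IL-1 pathway itself, 21 of 24 members were fitted, 5 were called higher with IL-1β and 2 (IRAK4 and SIGIRR) with TNF-α, and the median was 0.0544 log2 units. The count of 2 was 1 without IL-1β library 1, IL-1β library 3 or TNF-α library 1. The ligand IL1B read 291, 264 and 260.0 TPM with IL-1β, 27.5, 21.6 and 27.2 TPM with TNF-α and 0.221, 0.951 and 0.736 TPM untreated, 10.7 times higher with IL-1β (3.37 log2 units, SE 0.255, limma adjusted p = 3.55e-09). The added protein carries no RNA, so these TPM are transcripts of the cells. IL1A, the other ligand, read 16.1 ± 1.28 against 9.23 ± 0.812 TPM, a call lost with a pseudocount of 0.1 (limma adjusted p = 0.108). The receptor IL1R1 was 14.2 ± 0.0838 against 12.7 ± 0.316 TPM and was not called (limma adjusted p = 0.229), although quantile normalisation called it (limma adjusted p = 0.0424), and both cytokines lay under the untreated 23.4 ± 1.75 TPM. IL1RAP was 1.37 times higher with IL-1β (limma adjusted p = 0.00738). IRAK3, an inactive kinase that restrains IRAK signalling, read 5.52, 5.23 and 4.65 TPM with IL-1β and 2.33, 1.84 and 2.54 TPM with TNF-α, while IRAK1 and MYD88 were not called (179 ± 12.7 against 194 ± 4.42 TPM and 74.2 ± 2.45 against 75.1 ± 4.31 TPM).

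The TNF pathway list had 21 of 25 members fitted, 4 called in each direction and a median of 0.0412 log2 units. TNF itself stayed under the filter, at 0.0448, 0.0222 and 0 TPM with IL-1β and 0.151, 0.0462 and 0 TPM with TNF-α. TNFRSF9, the costimulatory receptor 4-1BB, read 5.29, 4.08 and 4.75 TPM with IL-1β, 15.95, 14.01 and 17.4 TPM with TNF-α and 0.0829, 0.0475 and 0.06900 TPM untreated, 3.35 times higher with TNF-α (-1.56 log2 units, SE 0.103, limma adjusted p = 3.02e-10). TNFSF4, OX40 ligand, stood at 16.1 ± 2.02 against 28.6 ± 0.863 TPM, a call lost with a pseudocount of 0.1 (limma adjusted p = 0.0912), and the adaptor TRAF2 at 30.3 ± 2.49 against 41.3 ± 3.27 TPM. TNFRSF11B, osteoprotegerin, a decoy receptor for RANK ligand, went the other way, at 91.04, 95.9 and 100.5 TPM with IL-1β, 18.6, 18.3 and 22.8 TPM with TNF-α and 8.26, 7.22 and 5.99 TPM untreated. The receptor TNFRSF1A differed by 1.13 times (315 ± 4.87 with IL-1β against 279 ± 2.65 TPM, limma adjusted p = 0.00108), and TNFRSF1B was not called at 3.02 ± 0.372 against 2.69 ± 0.981 TPM.

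The NF-κB subunits, inhibitors and feedback genes, all 25 fitted, split with larger sizes toward IL-1β and more members toward TNF-α: 7 were called higher with IL-1β and 11 with TNF-α, with a median of -0.14 log2 units. On the IL-1β side ZC3H12A, regnase-1, which degrades inflammatory mRNAs, joined NFKBIZ and SOD2 at 81.2, 81.00 and 80.5 TPM with IL-1β and 12.4, 13.5 and 13.7 TPM with TNF-α. The 2 most abundant members that were not called were NFKBIA (384 ± 20.1 against 422 ± 13 TPM), the classical inhibitor of NF-κB, and NFKB1 (91.7 ± 0.989 against 94.4 ± 4.97 TPM). The following members were singled out after their values were seen. NFKBIE, RELB, NFKB2 and BCL3 were called higher with TNF-α, at -0.94, -0.51, -0.29 and -0.57 log2 units, and TNFAIP3, the deubiquitinase A20, at -0.37. TNIP1 and TNIP3, which bind A20, were called higher with IL-1β, at 0.56 and 1.03 log2 units. TNIP2 of the same list went the other way, at 133.1, 140 and 144 TPM with IL-1β and 170.2, 173.2 and 170.6 TPM with TNF-α.

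The remaining genes among the 10 largest differences toward TNF-α were CD83, UBD, CXCL11, FAM3D, NUAK2, ART4 and TMEM71. CD83, a surface protein best known from mature dendritic cells, read 3.13, 2.700 and 3.69 TPM with IL-1β and 15.3, 11.3 and 15.5 TPM with TNF-α. UBD, the ubiquitin-like modifier FAT10, read 2.13, 2.51 and 2.197 and 10.5, 9.14 and 11.4 TPM and was listed at 0 in every untreated library. NUAK2, a kinase of the AMPK family, read 5.35, 7.58 and 5.91 and 14.1, 16.6 and 14.7 TPM over 0.578, 1.04 and 0.922 TPM untreated. These 3 genes lay above untreated under both cytokines, and their full separation toward TNF-α was a condition of the choice. FAM3D and TMEM71 instead lay below the untreated level with IL-1β. FAM3D read 3.13, 6.09 and 3.77 TPM with IL-1β, 13.6, 11.9 and 11.7 TPM with TNF-α and 19.2, 16.01 and 24.9 TPM untreated, and TMEM71 2.46, 1.76 and 1.71, 6.12, 5.49 and 4.52 and 12.5, 7.93 and 6.38 TPM, so that TNF-α lay between the other 2 groups. ART4 was above untreated with TNF-α (limma adjusted p = 5.58e-07) and not called with IL-1β (limma adjusted p = 0.0806), and its cytokine difference lost its call with a pseudocount of 0.1 (limma adjusted p = 0.0918).

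Among 13 leukocyte adhesion genes fitted, of 15 listed, 1 was called higher with IL-1β and 2 with TNF-α, with a median of -0.0504 log2 units. SELE, E-selectin, which slows rolling leukocytes, read 90.1, 79.2 and 93.7 TPM with IL-1β, 28.6, 19.3 and 25.5 TPM with TNF-α and 0.0855, 0.221 and 0.285 TPM untreated, 3.59 times higher with IL-1β (1.82 log2 units, SE 0.112, limma adjusted p = 9.95e-11). VCAM1, the ligand of the integrin VLA-4, read 0, 0.0452 and 0.176 TPM with IL-1β and 1.49, 1.74 and 1.69 TPM with TNF-α and was listed at 0 untreated; the call toward TNF-α (limma adjusted p = 3.18e-09) is at levels near 1 TPM. ICAM1, which binds leukocyte integrins, was not called, at 1089, 1083 and 1097 against 1146, 1105 and 1134 TPM over an untreated 116 ± 7.36 TPM (limma adjusted p = 0.858). ICAM2 was called lower with IL-1β, at 726 ± 6.1 against 852 ± 6.49 TPM.

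Complement and acute phase genes had 11 of 22 members fitted, 5 called higher with IL-1β and 2 with TNF-α, and a median of 0.30 log2 units; the count toward IL-1β was 3 without IL-1β library 1 and 3 without IL-1β library 2. Apart from C3 the differences were small: PTX3, a soluble pattern recognition protein, stood at 1154 ± 17.4 against 919 ± 17.3 TPM, C1R at 7.59 ± 0.741 against 4.79 ± 1.39 TPM and CD55, which protects cells from complement, at 292 ± 6.28 against 214 ± 8.46 TPM. CFI, the protease that inactivates C3b, was called higher with TNF-α, at 18.2 ± 1.12 against 26.1 ± 3.21 TPM, both under the untreated 39.9 ± 2.98 TPM. Of the prostanoid and oxidant enzymes, 10 of 14 fitted, PTGS2 was the single call toward IL-1β and 3 were called toward TNF-α, of which at most 1 was called without IL-1β library 1, IL-1β library 2, TNF-α library 1 or TNF-α library 2 (median -0.0482). PTGS2, cyclooxygenase-2, read 95.1, 88.8 and 87.04 TPM with IL-1β, 24.5, 20.8 and 21.6 TPM with TNF-α and 9.804, 9.45 and 8.16 TPM untreated. TBXAS1, thromboxane synthase, stood at 4.34 ± 1.4 against 6.51 ± 0.691 TPM.

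Interferon response genes stood higher with TNF-α: of 39 fitted, of 40 listed, 16 were called higher with TNF-α and 1 (ISG20) with IL-1β, with a median of -0.29 log2 units, and in 26 the 3 TNF-α libraries were all above the 3 IL-1β libraries, an order found in 23% of all genes. IRF1, a transcription factor of the interferon system, read 25.02, 24.3 and 26.02 TPM with IL-1β, 52.7, 49.9 and 55.1 TPM with TNF-α and 15.1, 12.98 and 14.5 TPM untreated, 2.09 times higher with TNF-α (-1.04 log2 units, SE 0.0789, limma adjusted p = 3.73e-09). IFIH1, the RNA sensor MDA5, stood at 7.33 ± 0.311 against 16.5 ± 0.594 TPM, and IFIT3 at 4.37 ± 0.272 against 9.31 ± 0.678 TPM. OAS1, an antiviral RNA sensor, reached its order by another path: it read 7.24, 7.303 and 7.396 TPM with IL-1β, 14.5, 13.8 and 13.6 TPM with TNF-α and 13.7, 15.9 and 15.7 TPM untreated, so TNF-α was not called against untreated and IL-1β fell below it (limma adjusted p = 7.75e-08 for IL-1β against untreated). Against untreated cells 27 of the 39 were above with TNF-α, and 18 were above and 4 below with IL-1β. The 2 most abundant members that were not called were IFI27 (616 ± 49.7 against 644 ± 16.9 TPM) and BST2 (457 ± 17 against 541 ± 24.4 TPM). Without TNF-α library 3 the count toward TNF-α was 8, and without TNF-α library 1 it was 10.

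Genes of MHC class I presentation followed the same order with smaller steps: 10 of 20 were called higher with TNF-α and 0 with IL-1β in limma (13 and 0 at an unadjusted p under 0.05), with a median of -0.23 log2 units. Over all genes 9.22% were called higher with TNF-α and 3.52% with IL-1β. TAP1, a subunit of the peptide transporter, read 9.41, 9.93 and 10.7 TPM with IL-1β, 14.8, 14.5 and 14.6 TPM with TNF-α and 6.79, 6.19 and 7.36 TPM untreated. HLA-B stood at 151 ± 3.41 against 189 ± 3.95 TPM, 1.25 times higher with TNF-α (limma adjusted p = 0.00215), with the caution that HLA genes share reads. The count was 6 without IL-1β library 1 or without TNF-α library 1, and 5 after quantile normalisation. Under the control comparisons 15 of the 20 were above untreated with IL-1β and 18 with TNF-α. MHC class II was nearly silent, with 4 of 10 members fitted and CD74 (0.112 ± 0.194 against 0.634 ± 0.255 TPM) the single call, toward TNF-α (median -0.14). That call was lost without IL-1β library 1 or 2 or TNF-α library 1 or 2 (limma adjusted p = 0.0858 to 0.127) and with only the 6 libraries (limma adjusted p = 0.0992).

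The genes of hypoxia and glycolysis lay toward IL-1β. Of 28 fitted, of 29 listed, 21 were called higher with IL-1β and 0 with TNF-α in limma (23 and 0 at an unadjusted p under 0.05), the median was 0.32 log2 units, and in 25 the 3 IL-1β libraries were all above the 3 TNF-α libraries, an order found in 8.92% of all genes. SLC2A1, the glucose transporter GLUT1, read 133, 139.8 and 123 TPM with IL-1β, 53.98, 58.5 and 52.3 TPM with TNF-α and 64.9, 74.5 and 74.2 TPM untreated. IL-1β lay above and TNF-α below every untreated library, and the difference was 2.401 times (1.25 log2 units, SE 0.0754, limma adjusted p = 6.7e-11). BNIP3, a mitophagy receptor, stood at 258 ± 7.22 against 150.1 ± 7.91 TPM, HK2, which phosphorylates glucose, at 20.6 ± 1.34 against 12.4 ± 0.484 TPM, and SLC16A3, a lactate exporter, at 486 ± 30.6 against 339.7 ± 21 TPM. Against untreated cells 18 of the 28 were above with IL-1β and 1 with TNF-α, and 2 and 6 were below. PKM (1706 ± 18.7 against 1684 ± 39.6 TPM) and ENO1 (1686 ± 34.5 against 1602 ± 49.7 TPM), the most abundant of the members not called, differed little.

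The p53 target genes went the other way: 17 of 24 were called higher with TNF-α and 0 with IL-1β in limma (17 and 0 at an unadjusted p under 0.05), with a median of -0.29 log2 units. The share of all genes called higher with TNF-α was 9.22%. BTG2, an antiproliferative gene, read 34.9, 34.6 and 44.3 TPM with IL-1β, 53.9, 56.4 and 57.6 TPM with TNF-α and 58.9, 52.6 and 63.7 TPM untreated. FAS, a death receptor, stood at 17.4 ± 0.653 against 24.7 ± 0.595 TPM and ZMAT3 at 32.4 ± 1.96 against 44.3 ± 2.37 TPM. Against untreated cells 14 of the 24 were below with IL-1β and 2 with TNF-α, beside 21.2% and 9.95% of all genes. These counts are on TPM as deposited and were not repeated after rescaling. BAX and GDF15, the most abundant members not called, were 248 ± 4.45 against 246 ± 3.27 TPM and 229.8 ± 13.6 against 217 ± 6.96 TPM. After rescaling by the median of ratios 12 members were called toward TNF-α.

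Cholesterol synthesis genes had 12 of 20 members called higher with TNF-α and 1 with IL-1β, the latter lost without any one of the 6 libraries, with a median of -0.27 log2 units. Beside these counts and those of the cell cycle below, 9.22% of all genes were called higher with TNF-α. HMGCS1, which makes HMG-CoA, read 97.1, 88.8 and 89.7 TPM with IL-1β, 138, 137 and 143 TPM with TNF-α and 151, 156 and 149.7 TPM untreated. Here 16 of the 20 were below untreated with IL-1β and 6 with TNF-α. Of all genes 21.2% and 9.95% were, shares that also stand beside the cell cycle counts against untreated cells below. Cell cycle genes, all 28 fitted, had 11 called higher with TNF-α and 0 with IL-1β in limma (16 and 0 at an unadjusted p under 0.05), with a median of -0.14: TOP2A stood at 76.5 ± 3.9 against 96.2 ± 4.7 TPM and CENPF at 24.6 ± 3.76 against 31.3 ± 2.01 TPM. Both cytokines lay on the low side of untreated cells for this list, with 23 members called below with IL-1β and 15 with TNF-α. The cell cycle count was unsteady: it was 6 after the median of ratios, 3 with only the 6 libraries in the fit, and 6, 4, 5, 7 and 7 without IL-1β library 2, IL-1β library 3 and TNF-α libraries 1, 2 and 3 in turn. With the 2 further untreated libraries of each line joined to the controls, the counts toward TNF-α were 7 for the interferon list, 4 for MHC class I, 8 for p53 targets, 3 for cholesterol synthesis and 3 for the cell cycle, and the count toward IL-1β was 9 for hypoxia and glycolysis. CDK1 was called although its libraries overlapped (49.3, 42.5 and 39.7 against 48.96, 53.2 and 53.2 TPM), and it was lost in 9 of 17 alternatives. CENPF was called in only 6 of 17, and its limma adjusted p reached 0.261 without IL-1β library 3, while TOP2A was called in all 17.

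**Figure D4:**
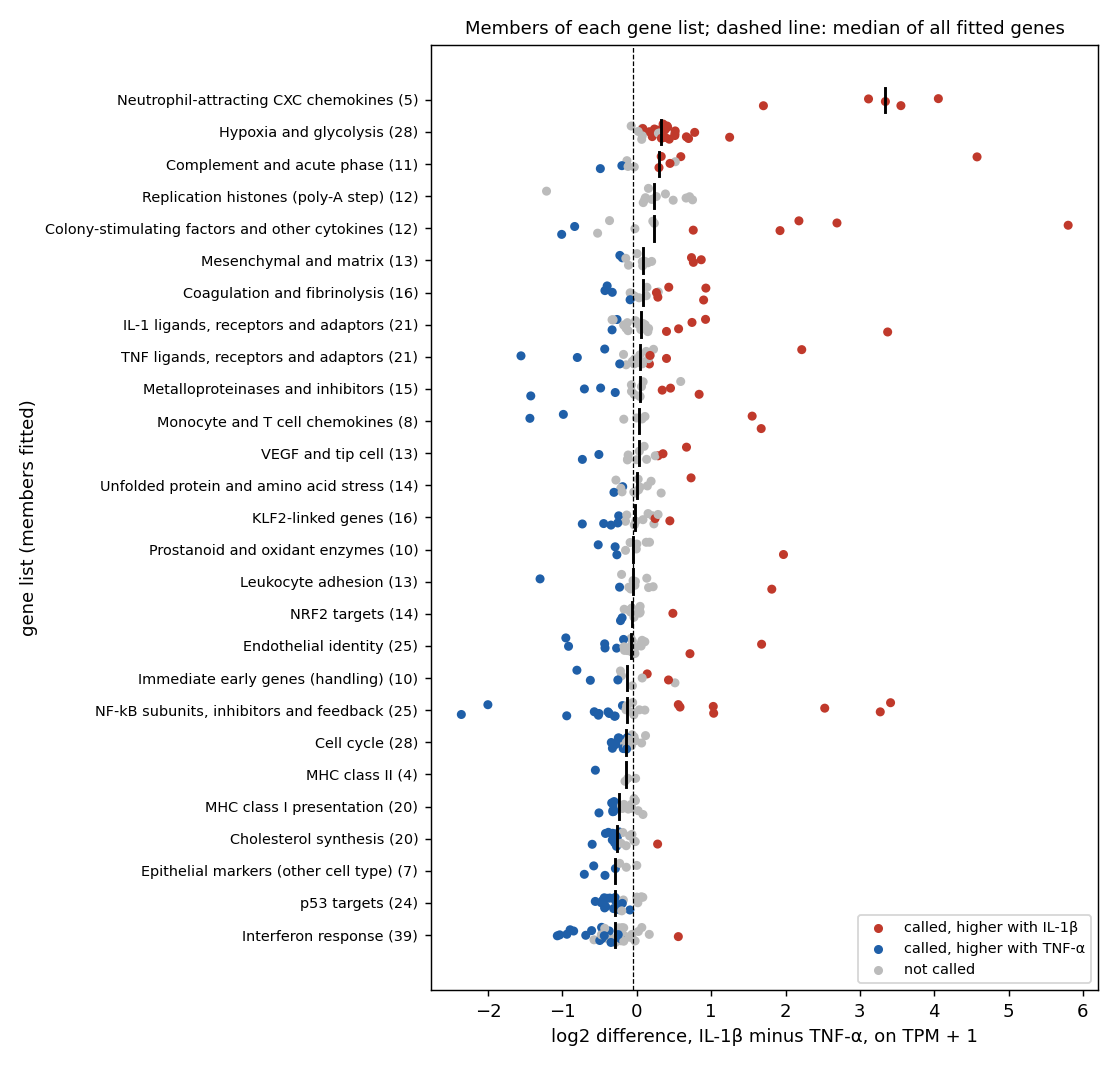
Each point is 1 fitted member of a gene list, with its log2 difference (IL-1β minus TNF-α, on TPM plus 1) on the x axis and the lists in order of their median, drawn as a black bar. The dashed line marks the median of all genes (-0.0497); the neutrophil-attracting chemokines lie at the top with all 5 members called toward IL-1β, and the interferon response and p53 lists lie at the bottom.

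Genes of the quiescent vessel wall were split. Of the KLF2-linked genes, 16 of 18 fitted, 2 were called higher with IL-1β and 5 with TNF-α (median -0.0226). NOS3, endothelial nitric oxide synthase, read 49.96, 45.8 and 47.4 TPM with IL-1β, 76.8, 84.3 and 78.7 TPM with TNF-α and 156, 143 and 159.8 TPM untreated, so both cytokines lay below untreated and IL-1β lower (-0.73 log2 units, SE 0.0651, limma adjusted p = 5.23e-08). KLF2, the flow-induced transcription factor, showed the same order at 40.6 ± 2.96, 51.95 ± 3.73 and 87.1 ± 2.67 TPM. The count of 5 was 3 without IL-1β library 1, IL-1β library 3, TNF-α library 1 or TNF-α library 2, and the count of 2 was 1 without IL-1β library 2 or TNF-α library 2. Of the 25 endothelial identity genes 2 were called higher with IL-1β and 6 with TNF-α, the latter 3 without IL-1β library 3 or TNF-α library 3 (median -0.0772). CLDN5, the tight junction claudin of endothelium, read 20.4, 23.1 and 24.1 TPM with IL-1β, 7.67, 6.76 and 4.87 TPM with TNF-α and 2.86, 2.59 and 3.63 TPM untreated. SOX17, an arterial transcription factor, was at the untreated level with TNF-α (44.8 ± 1.46 against 43.03 ± 2.33 TPM) and higher with IL-1β (74.1 ± 1.68 TPM). LYVE1 (11.7 ± 1.72 against 23.1 ± 4.09 TPM) and EMCN (0.3104 ± 0.182 against 1.55 ± 0.417 TPM) were called higher with TNF-α and lay far under their untreated 87.1 ± 8.35 and 4.23 ± 0.208 TPM; with a pseudocount of 0.1 LYVE1 was not called (limma adjusted p = 0.125). CDH5 and ENG were not called.

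Coagulation and fibrinolysis genes, 16 of 17 fitted, had 5 called toward IL-1β and 4 toward TNF-α (median 0.0789). SERPINE2, protease nexin-1, read 110.0, 107 and 99.9 TPM with IL-1β, 55.1, 55.3 and 54.7 TPM with TNF-α and 62.6, 66.6 and 62.9 TPM untreated, and F2RL1, the protease-activated receptor PAR2, 13.5, 14.3 and 15.3, 6.57, 6.97 and 8.23 and 0.568, 0.831 and 0.899 TPM. PLAT, tissue plasminogen activator, was called higher with TNF-α at 1876 ± 61.8 against 2472 ± 73.4 TPM, on either side of its untreated 2131 ± 4.97 TPM. In the VEGF and tip cell list, 13 of 15 fitted, 3 were called toward IL-1β and 2 toward TNF-α (median 0.034): VEGFC, the lymphatic growth factor, stood at 97.4 ± 3.47 against 60.9 ± 2.41 TPM, and the netrin receptor UNC5B at 3.79 ± 0.491 against 6.93 ± 0.413 TPM. The calls of UNC5B and ANGPT2 were lost with a pseudocount of 0.1 (limma adjusted p = 0.0528 and 0.281).

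The mesenchymal and matrix list, 13 of 18 fitted, had 3 calls toward IL-1β and 2 toward TNF-α (median 0.0794), the latter 1 without IL-1β library 1 or 2 or TNF-α library 1 or 3. TGFBI, an extracellular matrix protein, read 204, 199 and 211 TPM with IL-1β, 106, 115 and 114 TPM with TNF-α and 81.2, 88.6 and 89.04 TPM untreated. SNAI1, a repressor of cadherin genes, stood at 62.4 ± 2.23 against 36.4 ± 0.655 TPM, with TNF-α at the untreated 36.3 ± 6.48 TPM. Of the metalloproteinases and inhibitors, 15 of 18 fitted, 3 were called toward IL-1β and 4 toward TNF-α (median 0.0369). MMP9, gelatinase B, read 0.687, 0.6200 and 0.241 TPM with IL-1β and 3.44, 3.16 and 2.57 TPM with TNF-α, and ADAMTS1 74.4, 81.5 and 72.4 and 42.5, 44.4 and 39.4 TPM under an untreated 121 ± 1.62 TPM. MMP9 was higher and ADAMTS1 lower with TNF-α in every library.

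The lists for stress, handling and other cells are read beside the 12.7% of all genes called. The unfolded protein and amino acid stress list had 1 of 14 called toward IL-1β (DDIT4, 254 ± 21.8 against 152 ± 10.4 TPM) and 2 toward TNF-α (median -0.000644), the latter 0 without IL-1β library 3 and 1 without IL-1β library 2 or TNF-α library 2. The NRF2 targets had 1 of 14 toward IL-1β, the ferritin chain FTH1 at 3387 ± 48.9 against 2419 ± 26.3 TPM, and 2 toward TNF-α (median -0.0581). Of 10 immediate early genes fitted, of 12, 2 were called toward IL-1β and 3 toward TNF-α (median -0.13), the former 1 without IL-1β library 1, IL-1β library 2 or TNF-α library 3. FOSL1, a subunit of AP-1, read 237, 227 and 218 TPM with IL-1β, 391, 407 and 396 TPM with TNF-α and 232, 232 and 238 TPM untreated, and JUNB stood at 67.3 ± 0.917 against 104 ± 4.56 TPM over 25.2 ± 2.24 TPM. None of 12 replication histones was called in limma, with 2 higher with IL-1β and 1 with TNF-α at an unadjusted p under 0.05 and 1 called toward TNF-α without IL-1β library 3 or TNF-α library 2, and the mitochondrially encoded genes are not among the symbols of these columns. Of 7 epithelial markers fitted 4, all keratins, were called higher with TNF-α (KRT19 696 ± 17.8 against 1040.3 ± 39.7 TPM, with 1345 ± 34.6 TPM untreated, not called with a pseudocount of 0.1 at a limma adjusted p = 0.553), and the summed list did not overlap between the cytokines. FAP was the single call of the 3 fibroblast markers fitted, toward TNF-α, with the summed list at 24 to 24.3 and 24.7 to 31.8 TPM. It was called in 5 of 17 alternatives, and its limma adjusted p reached 0.263 without TNF-α library 3; it was also lost without TNF-α library 1 or any one of the IL-1β libraries. In limma 0 of 3 leukocyte markers were called (0 at an unadjusted p under 0.05). The part of the keratins in the other differences was not tested.

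The last comparison asked whether the cytokine difference was the same in Eahy926. It was not for many genes: the difference between the cytokines itself differed between the lines for 2192 of 13542 genes (16.2%) in limma. In Eahy926 CSF3 stood at 1.55 ± 0.305 TPM with IL-1β and 3.54 ± 1.13 TPM with TNF-α, so its large IL-1β level was seen in TeloHAEC (interaction 6.61 log2 units, SE 0.274, limma adjusted p = 6.72e-14). CXCL6 was listed at 0 in every Eahy926 library of the untreated, IL-1β and TNF-α groups (interaction 4.06 log2 units, SE 0.192, limma adjusted p = 6.71e-13). BIRC3 and TRAF1 were higher with TNF-α in both lines. BIRC3 stood at 0.596 ± 0.183 against 20.3 ± 0.928 TPM in Eahy926, a wider gap than in TeloHAEC (interaction 1.38 log2 units, SE 0.165, limma adjusted p = 2.06e-06). TRAF1 stood at 0.786 ± 0.206 against 20.9 ± 1.33 TPM there (interaction 1.62 log2 units, SE 0.168, limma adjusted p = 2.55e-07). With TNF-α BIRC3 reached a like level in both lines (23.8 ± 1.29 TPM in TeloHAEC), while with IL-1β it stood at 3.85 ± 0.455 TPM in TeloHAEC and under 1 TPM in Eahy926. TRAF1 with IL-1β showed that same contrast, at 15.05 ± 1.21 TPM in TeloHAEC and about 1 TPM or less in Eahy926. Untreated Eahy926 libraries read 1.56, 2.34 and 1.04 TPM for CSF3, 0.398, 0.400 and 0.819 for BIRC3 and 0.708, 0.537 and 0.619 for TRAF1. The IL-1β libraries of Eahy926 overlapped the untreated ones for each of these genes. The interaction does not show which cytokine's response differed between the lines.

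**Figure D5:**
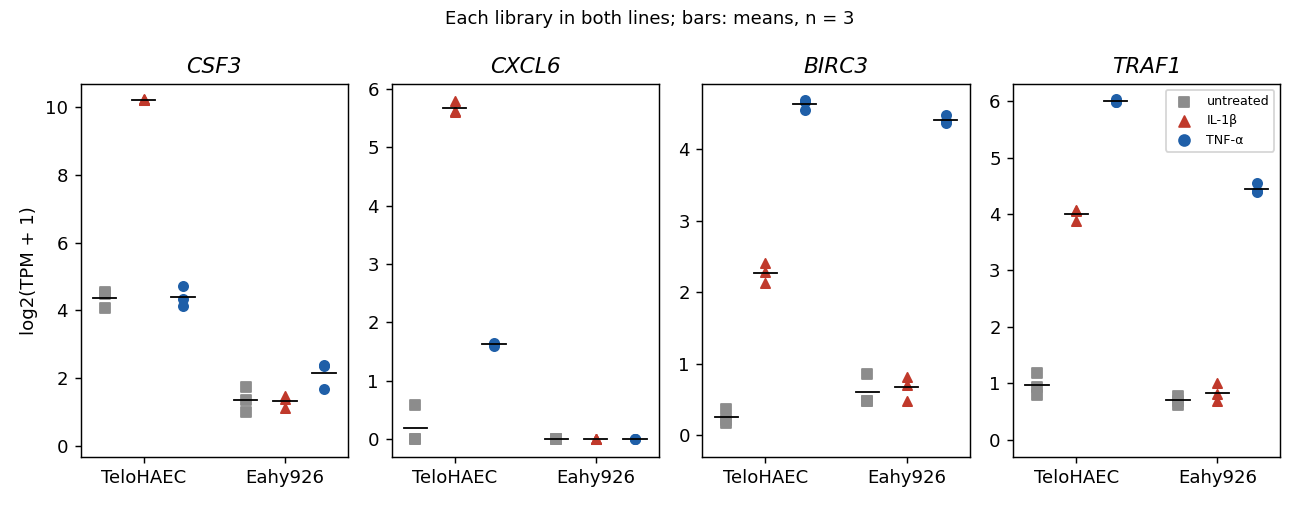
Log2(TPM + 1) of every library for CSF3, CXCL6, BIRC3 and TRAF1 in TeloHAEC and Eahy926, untreated (grey squares), with IL-1β (red triangles) and with TNF-α (blue circles), with bars at the mean of 3 libraries. CSF3 and CXCL6 rise to their IL-1β level in TeloHAEC and stay low in Eahy926, whereas BIRC3 and TRAF1 are highest with TNF-α in both lines.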

How the data were processed

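Poly-A RNA-seq values were used from 6 parental TeloHAEC libraries (3 with IL-1β, 3 with TNF-α), with 3 untreated TeloHAEC and the matching Eahy926 libraries beside them. The authors deposited 1 table of TPM per gene symbol for 52 libraries, per the file headers, and every value came from it. Libraries were made with the NEBNext Ultra II kit, per the labels' protocols, and the submitters' processing notes name Bowtie2, kallisto and hg19, with no versions and no roles. Whether counting used the strand is not given in the sources used here. TPM keep no read counts, so depth is unknown and no test for counts was run. Precision rests on the spread between libraries of a group, estimated for each gene over all 24 libraries of the fit.

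The 24 parental libraries of the 8 groups of 3 were filtered to symbols that reached 1 TPM in 3 or more of them (13542 of 27311), and log2(TPM + 1) was fitted with limma (trend, empirical Bayes) as 8 group means. The VEGF groups entered only to share the estimate of spread. Contrasts were IL-1β minus TNF-α, each cytokine minus untreated, and the cytokine difference in TeloHAEC minus that in Eahy926. P-values are two-sided, with Benjamini-Hochberg adjustment over all genes fitted, and called means an adjusted p under 0.05. Between any 2 libraries of a group at least 16102 symbols differed, so no library was a copy.

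The 30 gene lists (535 members) were written from general knowledge, and they and the libraries compared were chosen with earlier results of these data known. They are described by counts and medians, with no test of a list. Each count is read beside the share of all genes called, 3.52% higher with IL-1β and 9.22% higher with TNF-α. Counts against untreated cells are read beside 9.92% of all genes above and 21.2% below with IL-1β. With TNF-α those shares were 8.27% and 9.95%. Named genes are CSF3, CXCL6, BIRC3 and TRAF1, the 10 largest called differences in each direction (mean of the higher group at least 5 TPM, libraries not overlapping), up to 5 called and 2 not called members of each list, and 4 receptors. Others are said to be chosen after their values were seen, except members given with a list's count or filter. Promoters came from a RefSeq table on GRCh38.p14. Motif shares of the genes that differed by 1 log2 unit are not compared here, since only 34 of 56 and 21 of 31 had an entry.

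On simulated data for this contrast (13433 genes) the fit recovered 74.6% of 67 genes changed by 0.5 log2 units, 95.5% of 67 changed by 1 and 100% of 66 changed by 2, with 11 calls among unchanged genes. The changed genes all had a mean log2(TPM + 1) above 1. The noise was independent and normal, with each gene's own pooled spread. The rates therefore do not speak for the weakest genes or for noise of another kind. Alternatives were a pseudocount of 0.1, no filter, at least 5 TPM, 2 other scalings, only the 6 or the 12 TeloHAEC libraries, the 4 untreated libraries numbered 0.1 and 0.2 joined to the controls or as groups of their own, robust empirical Bayes, a replicate block and each library left out. Fits used limma 3.58.1 in R 4.3.3. Figures and sequences used Python 3.11.15 with numpy 2.4.6, pandas 2.3.3 and matplotlib 3.10.9.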

Additional observations from a re-analysis of the deposited data

Results flagged for a closer look

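The difference between the cytokines was not the same in TeloHAEC and Eahy926 for 2192 genes, by the interaction term of limma at an adjusted p under 0.05. The 4 marker genes were among them. For CSF3 the IL-1β minus TNF-α difference was 6.61 log2 units larger in TeloHAEC (SE 0.274, limma adjusted p = 6.72e-14), and for CXCL6 it was 4.06 log2 units larger (SE 0.192, limma adjusted p = 6.71e-13), where CXCL6 was listed at 0 in the Eahy926 libraries. For BIRC3 the term was 1.38 (SE 0.165, limma adjusted p = 2.06e-06) and for TRAF1 1.62 log2 units (SE 0.168, limma adjusted p = 2.55e-07), which here means a wider gap toward TNF-α in Eahy926.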

How the results depend on the processing

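The 1726 called genes kept their sign under every alternative in which they were fitted, except 2 genes under quantile normalisation. Most counts over all genes stayed within 1.5 times. Those that did not were the TNF-α side at 1 log2 unit (31 genes; 86 with a pseudocount of 0.1, against 73 on the IL-1β side, and 18 at a filter of 5 TPM, where fewer genes are tested) and the fit with the untreated libraries numbered 0.1 and 0.2 joined to the controls. That fit called 590 genes between the cytokines, 182 higher with IL-1β and 408 higher with TNF-α, and 905 in the interaction with line. All 590 were among the 1726, and 74 of the 87 genes at 1 log2 unit or more were still called. As groups of their own the same libraries gave 1858 calls. Neither the contrast between the cytokines nor the interaction uses an untreated mean, so their log2 differences are those of the main fit. Only the estimate of spread, and with it the p-values, can change. Why the spread differed was not tested. Leaving out 1 of the 6 libraries gave 1232 to 1466 calls, 369 to 398 of them higher with IL-1β. The replicate block gave 1634 calls. No effect shared by same-numbered libraries was seen. Residuals of same-numbered IL-1β and TNF-α libraries correlated at 0.0152 to 0.0176, 0 of 6 libraries correlated best with their own number, and 0 of 18 TeloHAEC pairs exceeded 0.1. This cannot show whether same-numbered libraries were prepared together. Of 184 named genes no called one changed sign in any alternative, while some that were not called did, TNFRSF1B, CXCL16, MYD88 and NFKB1 among them; 53 lost their call in the joined fit, 21 with only the 6 libraries, 16 with a pseudocount of 0.1 and 12 to 18 when 1 library was left out. List counts also moved by more than 1.5 times, in the joined fit, in other alternatives and on leaving out single libraries. Depth is unknown, so the precision of low genes cannot be judged from counts.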

Other observations

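Genes of other kinds also separated the cytokines, and all of those named here were chosen after their values were seen. On the IL-1β side, SOCS1, an inhibitor of cytokine receptor signalling, read 90.8, 98.97 and 92.3 TPM with IL-1β and 17.8, 18.7 and 17.3 TPM with TNF-α (2.33 log2 units, limma adjusted p = 6.49e-11). POU2F2, a transcription factor best known from B cells, read 18.3, 15.5 and 16.8 TPM with IL-1β and 1.25, 1.63 and 1.43 TPM with TNF-α (2.87 log2 units). Both genes were above the untreated level with both cytokines and in every library higher with IL-1β. Matrix genes were among them as well: tenascin C (TNC) stood at 74.6 ± 6.33 against 15.1 ± 0.487 TPM, and the collagen COL8A1 at 140.3 ± 3.95 against 37.1 ± 1.02 TPM. COL8A1 with TNF-α was at its untreated level (36.3 ± 1.2 TPM, limma adjusted p = 0.857). ICOSLG, a ligand for the T cell receptor ICOS, stood at 51.8 ± 1.81 against 19.9 ± 1.4 TPM over 1.94 ± 0.31 TPM untreated, and the bradykinin receptor BDKRB2 at 29.6 ± 1.87 against 11.8 ± 0.97 TPM.

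ANGPTL4, an inhibitor of lipoprotein lipase, moved in opposite directions. It read 354, 419 and 401 TPM with IL-1β, 139.9, 157 and 145 TPM with TNF-α and 239, 231 and 242 TPM untreated, and both changes from the untreated level were called (limma adjusted p = 6.03e-09 and 1.93e-08). On the TNF-α side the costimulatory receptor TNFRSF4 (OX40) stood at 1.47 ± 0.513 against 4.41 ± 1.14 TPM and was listed at 0 untreated, like its ligand TNFSF4 higher with TNF-α. The chemokine receptor CCR10 stood at 4.93 ± 0.461 against 11.2 ± 0.27 TPM. ACKR4, a scavenging receptor for chemokines, read 0.451, 0.335 and 0.326 TPM with IL-1β, 3.42, 2.44 and 1.69 TPM with TNF-α and 5.94, 3.96 and 6.01 TPM untreated, below the untreated level with both cytokines and lowest with IL-1β. The amino acid transporter SLC7A8 showed that order too, at 0.815 ± 0.0883, 2.904 ± 0.666 and 6.904 ± 0.614 TPM.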
